A study of Homo sapiens with 6 samples.

Results

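The ZFP36 and BTG/TOB genes are 2 small families of regulators of mRNA decay, and 8 of their members were followed here in a B-precursor leukaemia line. They were picked by symbol, 8 of the 26364 genes that the authors' deposited table lists: ZFP36, ZFP36L1 and ZFP36L2 of the first family, and BTG1, BTG2, BTG3, TOB1 and TOB2 of the second. All 8 were present, and each passed the abundance filter and had an adjusted p. The cells were REH, an established human line of B-precursor acute lymphoblastic leukaemia, grown in RPMI 1640 with fetal bovine serum. One group received S3I-201, a compound that targets STAT3, at 50 µM for 6 h, and the other DMSO, its solvent, for the same time. Each group held 3 libraries of total RNA, placed by the labels in independent experiments. The line is a single culture-adapted leukaemia, and the data cover only this dose and time.

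ZFP36 proteins carry tandem CCCH zinc fingers that bind AU-rich elements in the 3′ untranslated region (UTR) of short-lived mRNAs, and they recruit the CCR4-NOT complex, which removes the poly(A) tail. BTG and TOB proteins do not read such an element themselves. They hold the CNOT7 and CNOT8 deadenylases through their conserved N-terminal domain and contact poly(A)-binding protein, which speeds up loss of the tail from mRNAs in general. Members of both families restrain proliferation: in mice, Zfp36l1 and Zfp36l2 keep developing lymphocytes in check and Btg1 and Btg2 keep T cells quiescent, and BTG1 is recurrently deleted in human B-precursor leukaemia.

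The 3 ZFP36-family mRNAs each carry, in the 3′ UTR, the nonamer TTATTTATT that ZFP36 proteins bind, and the 5 BTG/TOB mRNAs carry none. The longest 3′ UTR that GENCODE release 29 gives each gene was read for this (GRCh38, the build named in the submitters' processing notes as hg38). The nonamer was searched on the transcript's own strand, in T for U. It was found in 9.1% of the 10752 tested genes with such a UTR. The 3 sites are shown, with the nonamer in capitals and read 5′ to 3′, because this is the element that the encoded proteins bind. A match is a description of the letters and not evidence of binding.
ZFP36: tatgacgactTTATTTATTctaatatgat
ZFP36L1: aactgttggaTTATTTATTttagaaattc
ZFP36L2: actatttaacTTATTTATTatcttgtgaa
They lie at chr19:39409196-39409224 on the plus strand, chr14:68788077-68788105 on the minus strand and chr2:43223448-43223476 on the minus strand. The shorter heptamer TATTTAT, held by 35% of the same genes, occurred in all 3 ZFP36-family mRNAs and in 4 of the 5 BTG/TOB mRNAs. TOB1 was the exception.

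On GRCh38, with whole genes as GENCODE draws them, ZFP36 lies at chr19:39406813-39409412, ZFP36L1 at chr14:68787660-68796253 and ZFP36L2 at chr2:43222402-43226609. BTG1 lies at chr12:92140278-92145897, BTG2 at chr1:203305491-203309602 and BTG3 at chr21:17593653-17612947. TOB1 lies at chr17:50862223-50867978 and TOB2 at chr22:41433492-41447023. The genes are compact: the principal transcript has 2 exons in 7 of them and 5 in BTG3.

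Values for single libraries were not analysed here, because the table pools them. For each gene it holds the mean normalized count over the 6 libraries (counts divided by a size factor for depth), and DESeq2's log2 ratio of the groups with its p, raw and adjusted. Which group is the denominator is not recorded. A positive ratio is taken as higher with S3I-201, and all directions below would be inverted if the denominator were S3I-201. The ratios look shrunken towards 0, so that changes of variable genes are understated. For genes with a single read, the median absolute log2 ratio was 0.033 to 0.042, depending on the library that held the read. The p-values set the difference between groups against the spread between libraries, 3 per group, as DESeq2 estimates it. They are not a measure of that spread.

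Size factors recovered from genes with few reads spanned 0.573 to 1.27, roughly 6600000 to 14500000 counts, with the smallest and the largest both among the libraries read as S3I-201. Of 16 B-precursor markers, 15 were detected, among them CD79A at a mean of 8207 and DNTT at 13622 as the authors' deposited table has them, while VPREB1 was listed at 0. Of the 14 markers tested, 13 had negative log2 fold changes, and CD24 fell, at -0.61 (DESeq2 adjusted p = 0.00505). Over all 11912 tested genes 6387 were negative, 5.9% passed and 16% had an unadjusted p under 0.05. The median of the 14 was -0.23, and -0.16 once the median fold change of genes of like abundance was removed. The part of these markers in the results was not tested. Of 36 markers of T and NK, myeloid, erythroid or megakaryocytic and stromal cells, 30 had a mean under 10 and 19 were listed at 0. MPO, a myeloid enzyme, was the highest at 978. Of the 6 tested, 0 passed by DESeq2 and 0 had an unadjusted p under 0.05.

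With S3I-201, 4 of the 8 genes rose and none fell past an adjusted p of 0.05 in the authors' DESeq2 results. Of all 11912 tested genes 5.9% passed, 4.45% as higher and 1.45% as lower. BTG2, BTG1, ZFP36 and TOB1 were the genes that rose. ZFP36L1, BTG3 and TOB2 were at 0.07 to 0.16 on the log2 scale and did not pass. ZFP36L2 was the only member with a negative value. The median log2 fold change of the 8 was 0.38, beside -0.02 over all tested genes. The 8 were chosen with earlier results of these data known, and no difference from all tested genes was tested. At an unadjusted p under 0.05 there were 5 of the 8, 4 of them higher, where 16% of tested genes passed and 9.11% were higher. The 4 also passed as higher when the abundance filter was dropped before adjustment (background 2.92%), with the abundance trend removed (4.84%) and with a minimum log2 fold change of 0.5 (4.17%). That minimum could remove none of the 4, whose values were 0.60 to 1.23, and removing the trend raised each of them. At 0.01 there were 3 higher (3.05%), and at 0.1 there was 1 lower (2.27%). In bulk RNA, fewer cells of a type and less RNA per cell cannot be told apart.

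BTG2, an early-response gene that p53 also induces, had the largest change of the 8. Its mean normalized count of 576 and its fold change in the authors' deposited table correspond to group means of 808 with S3I-201 and 344 with DMSO. As the ratios look shrunken, such group means, here and for the other genes, may lie closer together than the measured ones. BTG2 rose by 1.23 on the log2 scale, or 2.35-fold (implied SE 0.27, implied 95% interval 0.71 to 1.75, DESeq2 adjusted p = 2.19e-04). Only 86 of the 11912 tested genes had a higher fold change. The implied SE is the standard error that turns the deposited log2 ratio into its p under a normal distribution, and the interval is built from it. As the ratios look shrunken, such SEs and intervals, here and for the other genes, may be too narrow. An implied SE of 0.27 also occurred in CXCL8, at a mean of only 22. For BTG2 it was among the largest at its abundance: 0.0439% of the 4553 tested genes within 2-fold of its mean had a larger one, and their median was 0.16.

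BTG1, the closest relative of BTG2, also rose. A mean of 484 in the authors' deposited table corresponds to group means of 635 with S3I-201 and 334 with DMSO. Its log2 fold change was 0.93, or 1.90-fold (implied SE 0.21, interval 0.52 to 1.34, DESeq2 adjusted p = 4.44e-04), and 182 tested genes lay higher. GENCODE places a same-strand noncoding gene, LINC01619, over 10.4% of the exonic bases of BTG1, and an antisense gene, AC025164.1, over 6.7%. Reads in these stretches cannot be assigned to BTG1 alone. LINC01619 lies on the same strand, and the libraries do not mark the strand, which would set AC025164.1 apart. Neither neighbour was analysed here, nor was the pseudogene BTG1P1.

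TOB1, which joins the deadenylase to poly(A)-binding protein, rose as well. A mean of 551 in the authors' deposited table corresponds to 664 with S3I-201 and 437 with DMSO. It rose by 0.60 on the log2 scale, or 1.52-fold (implied SE 0.19, interval 0.24 to 0.97, DESeq2 adjusted p = 0.0256). The antisense gene TOB1-AS1 overlaps 11.1% of the exonic bases of TOB1. In the authors' deposited table TOB1-AS1 has a mean of 9.96 and a log2 fold change of -0.20. As the strand is not marked, reads in the shared stretch cannot be assigned to either gene. The part of TOB1-AS1 in the value of TOB1 was not tested. TOB1 did not pass at an adjusted p of 0.01, the only one of the 4 to drop out there.

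The remaining members of this family, BTG3 and TOB2, did not pass. By the authors' deposited table BTG3 stood at 0.16 on the log2 scale (interval -0.22 to 0.55, DESeq2 adjusted p = 0.788), and its mean of 242 corresponds to 256 with S3I-201 and 229 with DMSO. BTG3 has a pseudogene, BTG3P1, and shares 12.1% of its exonic bases with BTG3-AS1, neither of which was analysed here, so its value is uncertain to that extent. TOB2 stood at 0.07 in the same table (interval -0.23 to 0.36, DESeq2 adjusted p = 0.912), with group means of 1374 with S3I-201 and 1313 with DMSO, and its pseudogene TOB2P1 was listed at 0. The intervals leave room for a rise of up to 1.46-fold in BTG3 and 1.29-fold in TOB2, so these genes are not shown to be unchanged. As they rest on ratios that look shrunken, larger rises may be possible.

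In the ZFP36 family, ZFP36 itself rose, and its relatives did not follow it past the threshold. ZFP36, or tristetraprolin, is an early-response protein that destabilises the mRNAs of cytokines and growth regulators. Its mean of 848 in the authors' deposited table corresponds to 1037 with S3I-201 and 659 with DMSO. It rose by 0.65 on the log2 scale, or 1.57-fold (implied SE 0.18, interval 0.30 to 1.01, DESeq2 adjusted p = 0.00787). ZFP36L1, the most abundant of the 8 with a mean of 3720, stood at 0.12 on the log2 scale (implied SE 0.19, interval -0.25 to 0.48, DESeq2 adjusted p = 0.853). Its group means were 3871 with S3I-201 and 3568 with DMSO. ZFP36L2, with a mean of 2821, stood at -0.48 on the log2 scale of the authors' deposited table (implied SE 0.17, interval -0.81 to -0.16, p = 0.00380, DESeq2 adjusted p = 0.0609). That corresponds to 2352 with S3I-201 and 3290 with DMSO, a value that missed 0.05 and lay below that of 11627 of the tested genes. The intervals of ZFP36 and ZFP36L2 do not overlap, but the difference between the genes was not tested, since that needs values per library.

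**Figure D1:**
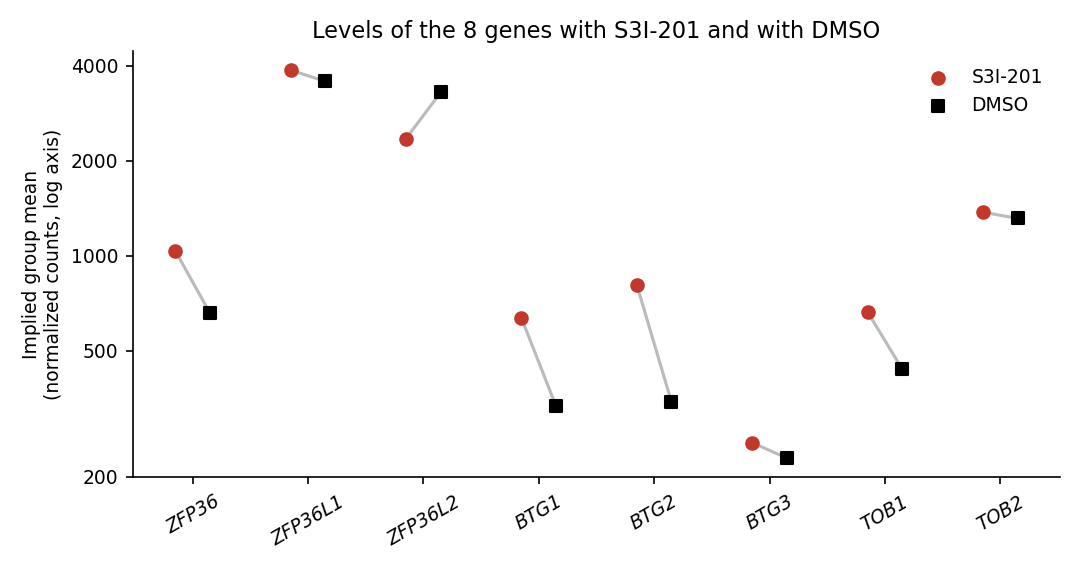
Mean normalized count of each gene (log axis) with S3I-201 (red circles, left) and with DMSO (black squares, right), worked out from the deposited mean and fold change, with no error per group. BTG2, BTG1, ZFP36 and TOB1 lie higher with S3I-201, and ZFP36L2 lies lower, at 2352 against 3290.

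**Figure D2:**
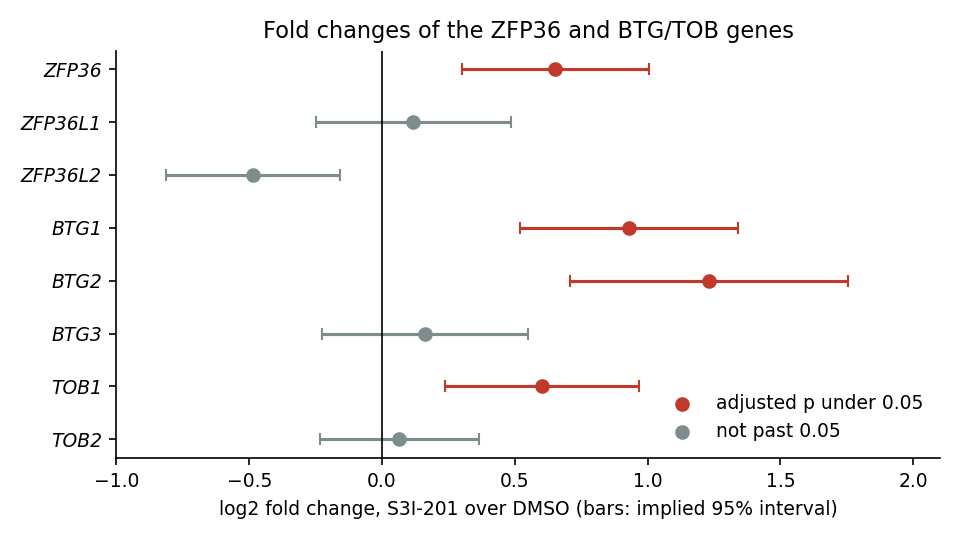
Log2 fold change of S3I-201 over DMSO for each gene (points) with the 95% interval implied by the deposited p-value (bars); red marks an adjusted p under 0.05. The intervals of the 4 red genes lie above 0, that of ZFP36L2 lies below 0 without passing the adjusted threshold, and those of ZFP36L1, BTG3 and TOB2 span 0.

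Among all tested genes, the 4 that rose were of middling to high abundance. The share of tested genes with a lower mean was 54.8% for BTG1, 58.5% for TOB1, 60.1% for BTG2 and 71.0% for ZFP36. ZFP36L2 and ZFP36L1 were more abundant than 93.7% and 95.7% of tested genes. At the mean of any of the 8, between 5.00% and 9.02% of the tested genes within 2-fold of it passed. By the size factors, the smallest library held about 139 counts of BTG3, the least abundant, and about 2130 of ZFP36L1.

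**Figure D3:**
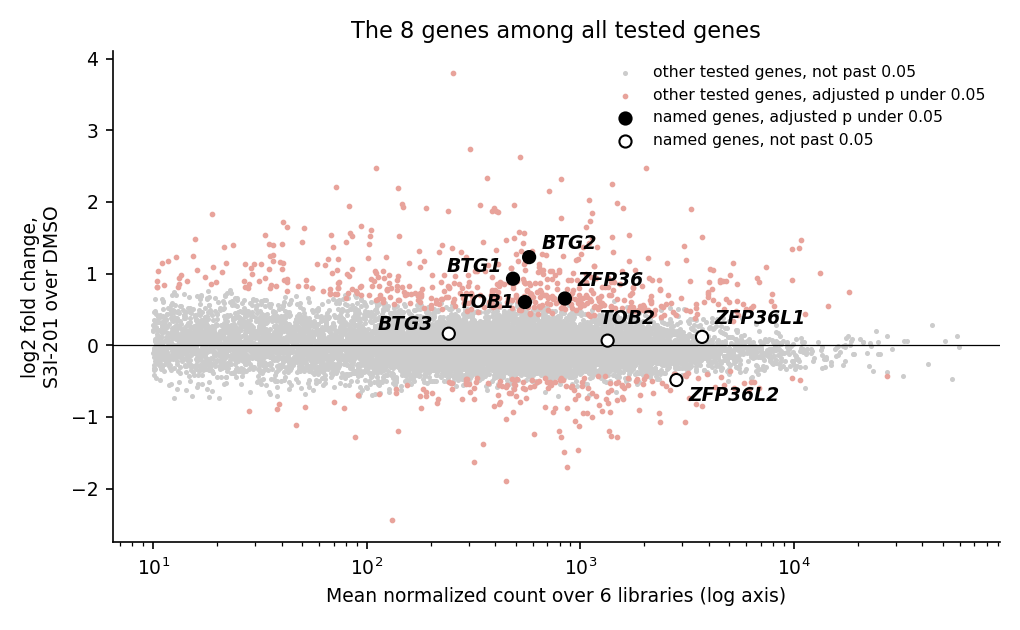
Log2 fold change of S3I-201 over DMSO against mean normalized count (log axis) for all 11912 tested genes (grey, or pink where the adjusted p was under 0.05), with the 8 genes as large circles, filled where they passed. BTG2 and BTG1 stand above most genes of their abundance, and ZFP36L2 sits at the lower edge.

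Per length, the ZFP36 family outweighed the BTG/TOB family. On the scale of mean normalized counts per kb of the principal GENCODE transcript, ZFP36L1 had 1166, ZFP36L2 763 and ZFP36 475. TOB2 followed with 295, TOB1 with 247, BTG2 with 213, BTG3 with 166 and BTG1 with 104 on the same scale. For ZFP36L1 this transcript is not the one with the longest 3′ UTR: it has 3190 bases, against 5160 exonic bases of the whole gene. The level of ZFP36L1 per kb, its place above ZFP36L2 and the sum and shares of its family depend on that choice. Neighbours in this order have no error per gene and are not shown to differ. ZFP36 made up 23.9% of the per-length level of its family with S3I-201, against 15.5% with DMSO, and ZFP36L2 26.2% with S3I-201, against 37.4% with DMSO. ZFP36L1 held 49.9% with S3I-201 and 47.0% with DMSO. The family's summed per-length level was 2430 with S3I-201 and 2378 with DMSO, a difference of 2.2% whose sign depends on the transcript lengths chosen. The 5 BTG/TOB genes summed to 1209 with S3I-201 and 839.5 with DMSO, which is 44.0% more with S3I-201. BTG2 took 24.7% of that sum with S3I-201, against 15.1% with DMSO. These sums and shares rest on group means implied by ratios that look shrunken, and they have no replicate error.

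The stretch just before the start of the 4 genes that rose is shown because all 4 passed in the same direction. RefSeq promoters (GRCh38.p14) were in the reference table for 7 of the 8 genes, as 9 windows, and the table had none for ZFP36L2. The 250 bases before each start were searched on both strands for 7 motifs: the cyclic AMP response element TGACGTCA, its core TGACG, the C/EBP-ATF element TGATGNAA, the STAT element TTCNNNGAA, the antioxidant element core TGACNNNGC, TATAAA and CCAAT. The core TGACG lies inside TGACGTCA and can overlap TGACNNNGC. Matches are in capitals, and each line reads 5′ to 3′ along the gene, so that a match on the other strand appears as its reverse complement.
BTG2: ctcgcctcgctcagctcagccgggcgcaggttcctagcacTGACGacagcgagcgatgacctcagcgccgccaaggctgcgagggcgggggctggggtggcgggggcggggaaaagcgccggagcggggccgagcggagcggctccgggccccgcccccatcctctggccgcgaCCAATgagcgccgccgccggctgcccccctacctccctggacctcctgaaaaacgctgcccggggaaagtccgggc
BTG1: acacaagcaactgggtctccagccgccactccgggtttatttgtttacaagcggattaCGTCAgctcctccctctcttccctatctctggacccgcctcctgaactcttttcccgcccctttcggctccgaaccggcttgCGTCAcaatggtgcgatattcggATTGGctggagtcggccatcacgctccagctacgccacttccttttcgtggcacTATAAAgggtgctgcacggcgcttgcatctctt
TOB1: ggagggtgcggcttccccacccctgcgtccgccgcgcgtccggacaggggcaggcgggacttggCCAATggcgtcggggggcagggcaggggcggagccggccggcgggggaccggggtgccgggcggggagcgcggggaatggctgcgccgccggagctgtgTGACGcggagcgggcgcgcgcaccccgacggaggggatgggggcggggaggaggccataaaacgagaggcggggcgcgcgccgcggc
ZFP36: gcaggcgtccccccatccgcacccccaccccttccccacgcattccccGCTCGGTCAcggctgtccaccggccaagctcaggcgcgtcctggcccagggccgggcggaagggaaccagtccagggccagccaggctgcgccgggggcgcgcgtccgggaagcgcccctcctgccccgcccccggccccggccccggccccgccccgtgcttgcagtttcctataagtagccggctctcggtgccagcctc
These are chr1:203305269-203305518 on the plus strand for BTG2, chr12:92145847-92146096 on the minus strand for BTG1, chr17:50866355-50866604 on the minus strand for TOB1 and chr19:39406597-39406846 on the plus strand for ZFP36. TGACG, found in 21.2% of 35116 promoter windows, occurred 210 bases before the start of BTG2, at 192 and 110 bases before that of BTG1 and at 87 bases before the TOB1 start shown. ZFP36 had no TGACG. BTG3 and TOB2, which did not pass, had none of the 7 motifs in these letters. ZFP36L1, which did not pass either, had the full TGACGTCA at 52 bases before one of its starts, a match that 1.65% of windows hold. TGACG thus occurred in 3 of the 4 genes that rose and in 1 of the 3 others with a window. CCAAT, in 32.0% of windows, occurred once each in BTG2, BTG1 and the TOB1 window shown, and in one window of ZFP36L1. Of the 7 genes with a window, BTG1 alone had TATAAA, at 33 bases, against 10.7% of windows. ZFP36 had TGACNNNGC at 202 bases, and ZFP36L1 at 138 bases before its other start, against 10.9% of windows. No window of the 7 genes held TTCNNNGAA or TGATGNAA, which 6.57% and 3.14% of windows hold, and the lack of a match in these letters says nothing about the factors. The second TOB1 window, before the start at position 50867978, held no match.

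Nearly all genes of the machinery that the 8 proteins act through did not pass. In 5 lists of deadenylases, poly(A)-binding proteins, decapping factors and exosome subunits, 60 of 61 genes were tested, 1 rose and 59 did not pass. That is 1.67%, against 5.9% of all tested genes, and the median log2 fold change was -0.06, beside -0.02 over all. The gene that rose was DCP1B, a cofactor of the decapping enzyme, which the authors' deposited table puts at 0.59 on the log2 scale (implied SE 0.17, DESeq2 adjusted p = 0.0133). Of the 11 CCR4-NOT subunits, 0 passed by DESeq2 and 1 had an unadjusted p under 0.05, where 16% of all tested genes did. CNOT3, a scaffold subunit, had 0.34 (adjusted p = 0.205) and CNOT8, a deadenylase that BTG and TOB proteins bind, had 0.22 (adjusted p = 0.392). CNOT7, the other such deadenylase, named outside the rule after its value was seen, had -0.13 (DESeq2 adjusted p = 0.758), all log2 fold changes from the authors' deposited table.

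Of 8 other deadenylases, 0 passed by DESeq2 and 0 had an unadjusted p under 0.05. ANGEL1 at -0.19 (adjusted p = 0.652) and ANGEL2 at 0.21 (adjusted p = 0.663) came closest by the authors' deposited table. Among 6 tested poly(A)-binding proteins and partners, 0 passed by DESeq2 and 1 had an unadjusted p under 0.05. PAIP2, an inhibitor of poly(A)-binding protein, had 0.26 (adjusted p = 0.288) and PABPC4, a cytoplasmic poly(A)-binding protein, had -0.23 (adjusted p = 0.466). Of 16 genes of the exosome and its SKI cofactor, which degrade mRNA from the 3′ end, 14 had negative values and 0 passed by DESeq2, with 2 at an unadjusted p under 0.05. EXOSC10, a nuclease, had -0.32 (adjusted p = 0.171) and DIS3L, a cytoplasmic nuclease, -0.30 (adjusted p = 0.219), and the list median was -0.16. Over all 11912 tested genes 5.9% passed, 16% had an unadjusted p under 0.05 and 6387 had negative values. The numbers of calls in lists this small cannot be told apart from those shares, and no difference from them was tested.

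Other regulators that bind the 3′ UTR, or work with factors that do, gave 1 lower gene and 17 of 18 tested that did not pass. Over all tested genes 5.9% passed, 1.45% as lower, and 16% had an unadjusted p under 0.05. The calls in this list and the next cannot be told apart from those shares. AGO1, an Argonaute protein of microRNA silencing, fell, at -0.49 on the log2 scale of the authors' deposited table (implied SE 0.15, DESeq2 adjusted p = 0.0256). The call was lost when the median fold change of genes of like abundance was removed (adjusted p = 0.0609). It was also lost with a minimum log2 fold change of 0.5. Of 12 tested genes of the p38-MK2 kinases, 14-3-3 proteins and PP2A, which control ZFP36 activity by phosphorylation, 0 passed by DESeq2 and 1 had an unadjusted p under 0.05. YWHAE, a 14-3-3 protein, had -0.33 (adjusted p = 0.160) and YWHAB, another, -0.21 (adjusted p = 0.419). Changes in phosphorylation are not visible in mRNA counts.

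Of 39 transcripts described as AU-rich targets of ZFP36 proteins, 24 were tested: 7 rose, 1 fell and 16 did not pass. Not all bear out the description in the longest 3′ UTR: CDKN1A had 0 TATTTAT, and SOCS1 had 0 ATTTA, the core of that heptamer. Over all tested genes 4.45% were higher and 1.45% lower, so higher calls outnumbered lower ones in the whole table too. The list had a median log2 fold change of 0.18 beside -0.02 over all tested genes. It was chosen with earlier results of these data known, so its calls and median are a description only. No difference from all tested genes was tested. Of the transcripts not tested, 7 were listed at 0 and 7 were too low for an adjusted p. MYC, with a mean of 4679 and a log2 fold change of -0.57, had no p. CDKN1A, the cell cycle inhibitor p21, had 1.90 (DESeq2 adjusted p = 4.76e-14), VEGFA, an angiogenic factor, 1.02 (adjusted p = 3.95e-08) and LIF, a cytokine of the IL-6 family, 1.52 (adjusted p = 1.70e-07), as log2 fold changes from the authors' deposited table. KLF2, a factor of lymphocyte quiescence, had 1.54 (adjusted p = 7.15e-07), CXCL8, a chemokine, 1.14 (adjusted p = 8.06e-04) and PIM1, a survival kinase, 0.92 (DESeq2 adjusted p = 0.00250). FOS at 0.82 (DESeq2 adjusted p = 0.0304) and TNFAIP3, the lower gene, at -0.44 (adjusted p = 0.0335) were named after their values were seen. Neither passed once the abundance trend was removed (FOS adjusted p = 0.0529, TNFAIP3 adjusted p = 0.107). TNF, the classical target of ZFP36, had 0.43 on the same scale (DESeq2 adjusted p = 0.230).

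**Figure D4:**
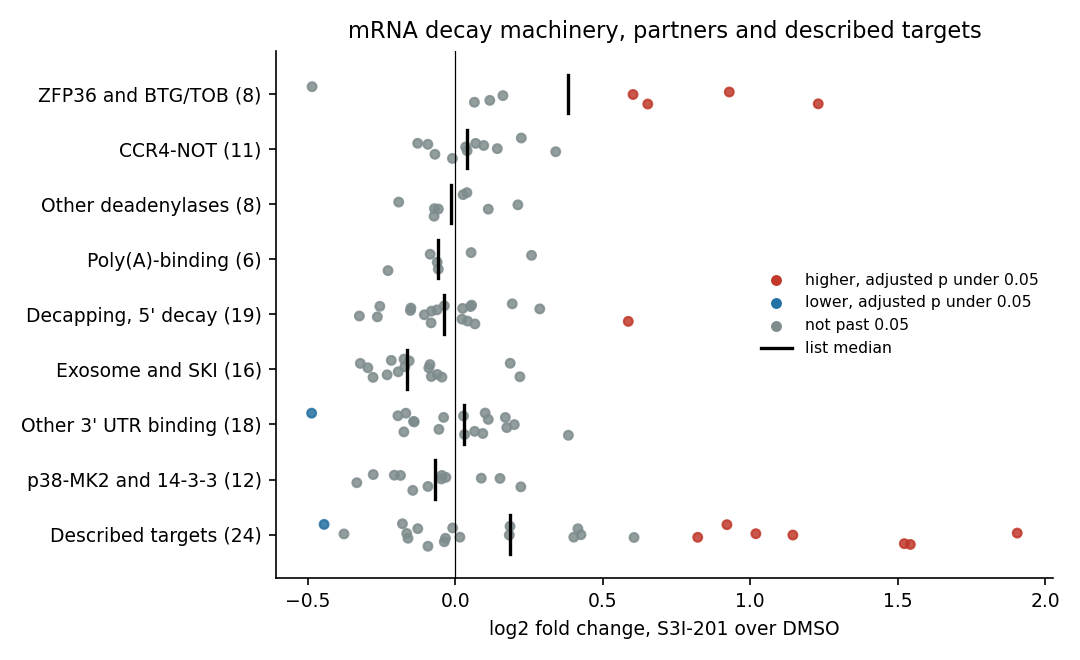
Log2 fold change of S3I-201 over DMSO for each tested gene (points, with the number per list in brackets) of the ZFP36 and BTG/TOB genes, the decay machinery, regulators and described targets; black lines are list medians, red and blue mark adjusted p under 0.05. The 8 genes run from -0.48 to 1.23 and the described targets from -0.44 to 1.90, while the 5 machinery lists run from -0.32 to 0.59.

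Of the 24 tested targets, 13 held the nonamer TTATTTATT in the longest 3′ UTR, and of these 5 rose and 1 fell. Of the 11 without it 2 rose: CDKN1A, which had 0 of the heptamer TATTTAT as well, and KLF2, which had 1. Over all tested genes 4.45% were higher and 1.45% lower, and the difference between targets with and without the nonamer was not tested. The sites of the 6 that passed are shown, the first in each UTR, with the run of overlapping nonamers in capitals.
VEGFA: ttgttatcatTTATTTATTggtgctactg
LIF: ctccgggcccTTATTTATTatttaaacat
CXCL8: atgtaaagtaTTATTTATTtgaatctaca
PIM1: atgtatTTATTTATTTATTTATTtggttc
FOS: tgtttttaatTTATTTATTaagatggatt
TNFAIP3: gtaattcactTTATTTATTttattacaaa
They lie at chr6:43786286-43786314 on the plus strand, chr22:30240958-30240986 on the minus strand, chr4:73742664-73742692, chr6:37174989-37175017, chr14:75282060-75282088 and chr6:137882298-137882326, the last 4 on the plus strand. Among the sites shown, that of PIM1 has the longest run, with 3 overlapping nonamers.

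Across all tested genes, those with the nonamer were set beside those without it. Of 978 such genes, 5.83% were higher and 1.33% lower, with a median log2 fold change of 0.02. Of 9774 genes without it, 4.48% were higher and 1.56% lower, with a median of -0.03. The classes also differed in the length of the 3′ UTR, with medians of 3041 and 1245 bases, so the comparison was repeated at like length. Within 3′ UTRs of 1000 to 2000 bases, the 192 genes with the nonamer had a median of 0.03 and the 2379 without it -0.02. Single genes with the nonamer had quartiles of -0.12 and 0.20. The differences between these medians were not tested, and genes are not independent replicates.

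**Figure D5:**
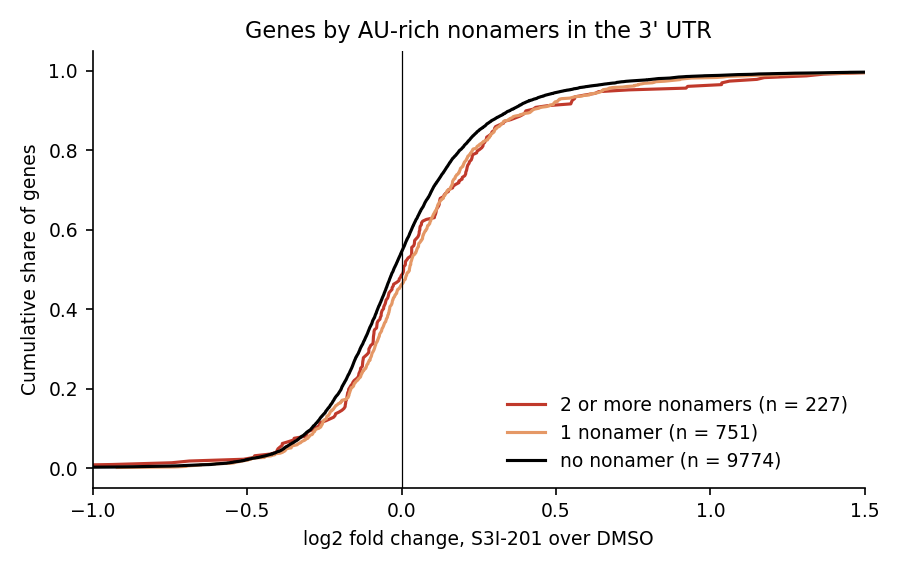
Cumulative share of tested genes (vertical axis) at or below each log2 fold change of S3I-201 over DMSO (horizontal axis, shown from -1 to 1.5), for genes with 2 or more, 1 or no TTATTTATT in the longest 3′ UTR. The curves have medians of 0.01 for 2 or more and 0.03 for 1, against -0.03 for none.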

How the data were processed

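RNA-seq of 6 libraries was deposited as a single comparison table of the groups. Per the labels' protocols, RNA came from a column kit and libraries from TruSeq RNA v2, which does not mark strand. The submitters' processing notes name bcl2fastq 2.19, Trimmomatic, Bowtie2, Picard, featureCounts, DESeq2 and hg38. The annotation, strand setting and model are not given in the sources used here. Per the file headers, the authors deposited a mean normalized count (a signal, counts over size factors) and a log2 fold change. A p-value, raw and adjusted, was deposited too.

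The adjusted p was used as deposited at 0.05, over 11912 genes. Recomputing it from the raw p by the Benjamini-Hochberg method differed by at most 0.675%. Implied SEs and intervals, group means (from the mean and the fold change, with equal groups) and the alternatives were computed in Python 3.11.15 with scipy 1.17.1, and the steps were tested on simulated data. Since the table holds no counts per library, no count test was run here. Abundance trend means the median fold change of 20 abundance bins. Symbols matched a 3′ UTR for 90.3% of tested genes. The members, the lists and the AU-rich and promoter searches were chosen with earlier results of these data known. Named were all 8 members and, per list, up to 6 genes that passed or else the 2 with the smallest adjusted p. Other genes were named after their values were seen.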

Additional observations from a re-analysis of the deposited data

How the results depend on the processing

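The 8 genes kept their side of 0.05 in all 24 recomputed values. These came with the abundance trend removed, with no abundance filter before adjustment (16974 genes), and with the median of all tested genes removed. The direction was not free to change, so it is no check. Dropping the filter leaves the fold change as it is. The shifts removed lay between -0.07 and -0.01, which raises the 7 positive values and cannot turn ZFP36L2 at -0.48. With the trend removed, the adjusted p was 0.0155 for TOB1 and 0.138 for ZFP36L2. At a threshold of 0.1 the number of members called lower became 1, ZFP36L2, and at 0.01 the number called higher became 3. At 0.01 the decapping list had 0 calls and the list of other 3′ UTR regulators 0. That second list also had 0 with the trend removed and 0 with a minimum log2 fold change of 0.5. The other 36 of 40 list counts were the same or within 1.5 times. Most of them were 0 both times, and a list with 0 calls has to stay at 0 under a stricter rule. The comparison by AU-rich nonamer and its alternatives were chosen after seeing the data. No paired analysis was possible because the table holds no value per library. For the same reason leaving out a replicate, other normalizations and a filter on low counts were not run. No single library can be shown to carry or not to carry a result, and the smallest library had a size factor of 0.573.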
